A study of Homo sapiens with 120 samples.

Results

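Cells without both PACT and TRBP were compared with cells that keep both, by sequencing their total small RNA. The samples were taken by their labels for cell line, RNA fraction and experiment: 12 libraries of the 120 in the series, all from experiment 1, with 6 from the double knockout of PACT and TRBP (DKO) and 6 from the line labelled Parental. Both are HEK293T, a human embryonic kidney cell line, and both carry the PKR knockout labelled pOSI17, as do the PACT knockout and the TRBP knockout used beside them. PKR is the kinase that double-stranded RNA (dsRNA) activates. In each line 2 libraries came from mock transfected cells, 2 from cells given the long dsRNA labelled dsGFPc and 2 from cells given dsGFPd. Each genotype is 1 line, and the labels name no clone, so a feature of the line and an effect of the knockout cannot be told apart. They do not say whether replicates were separate cultures, so the p-values reflect only how far these libraries vary, which may be technical. Small RNA libraries do not measure the PACT and TRBP messages, and the knockouts were not checked here.

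A microRNA (miRNA) is cut in steps from a folded transcript: Drosha frees a hairpin in the nucleus, and Dicer removes its loop in the cytoplasm. The remaining duplex has a strand from each arm, named 5p and 3p, and an Ago protein keeps 1 of them, which finds its targets mostly through its seed. PACT and TRBP are related dsRNA-binding proteins that attach to the helicase domain of Dicer, and are known to affect where Dicer cuts some hairpins and which strand is kept.

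The let-7 family had more members that fell than any other list described here, and its sequences are shown because its members share 1 seed but not 1 change. RefSeq (build GRCh38.p14) gave a mature sequence for 47 of the 59 miRNAs called. Each is written from its 5′ end, with the seed, bases 2 to 8, in capitals.
let-7a-5p: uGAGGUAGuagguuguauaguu
let-7b-5p: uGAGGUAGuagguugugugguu
let-7c-5p: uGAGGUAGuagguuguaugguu
let-7d-5p: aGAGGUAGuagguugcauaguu
let-7e-5p: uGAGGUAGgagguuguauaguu
let-7f-5p: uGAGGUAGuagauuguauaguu
let-7g-5p: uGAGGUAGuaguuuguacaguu
let-7i-5p: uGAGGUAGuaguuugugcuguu
miR-98-5p: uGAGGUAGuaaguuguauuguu
Counted from the 5′ end, let-7b-5p differs from let-7a-5p by A17G and A19G, let-7c-5p by A19G and let-7e-5p by U9G. The other members differ from it at 1 to 4 positions, so reads of neighbours that differ by a single base can be hard to separate, and how such reads were assigned is not given in the sources used here.

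The single miRNAs with large changes have other seeds, and are shown for comparison with let-7. In the first 3 the level fell in DKO, and in the last 4 it rose.
miR-204-5p: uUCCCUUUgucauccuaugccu
miR-218-5p: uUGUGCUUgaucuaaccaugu
miR-324-5p: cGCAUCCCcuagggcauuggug
miR-320b: aAAAGCUGgguugagagggcaa
miR-34a-5p: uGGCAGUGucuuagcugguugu
miR-129-5p: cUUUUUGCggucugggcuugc
miR-152-3p: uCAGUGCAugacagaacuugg

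The 12 libraries held 406531 to 1020613 reads, with a median of 572160, and 1 read was worth 0.753 to 2.013 normalised counts. The authors' normalised counts summed to 765476 to 852539 per parental library and to 685450 to 780982 per DKO library. Of 15 markers of other cell types in the table, 3 (miR-206, miR-223-3p and miR-150-5p) were at 0 in all 12 libraries. The marker sum was 937 to 1070 in parental and 1060 to 1214 in DKO libraries. Most of it was miR-375-3p, an endocrine miRNA, and without it the sums were 207 to 252 and 179 to 259.

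In the DKO line most miRNAs were near their parental level and a minority differed. The let-7 family, miR-204-5p and miR-218-5p were among those lower, and the miR-320 family, miR-486-5p and miR-34a-5p among those higher. In limma with Benjamini-Hochberg adjustment over all miRNAs tested, 59 of 422 (14.0%) passed an adjusted p of 0.05. Of these, 23 (5.45% of those tested) rose and 36 (8.53%) fell. The median change of all 422 was -0.02 on the log2(normalised count + 1) scale, on which all changes below are given as DKO minus parental. The median size of a called change was 0.53 and 10 reached 1, with 5 in each direction. In 58 of the 59 the sign was the same in mock, dsGFPc and dsGFPd libraries, the exception being miR-4661-5p. The calls were made on these same libraries together, so this agreement is largely built in and is not a replication. When every library was scaled to the same sum, the median of all miRNAs became 0.09 and the split became 49 higher and 28 lower of 77 called. None of the 23 that rose and 8 of the 36 that fell lost the call there.

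**Figure D1:**
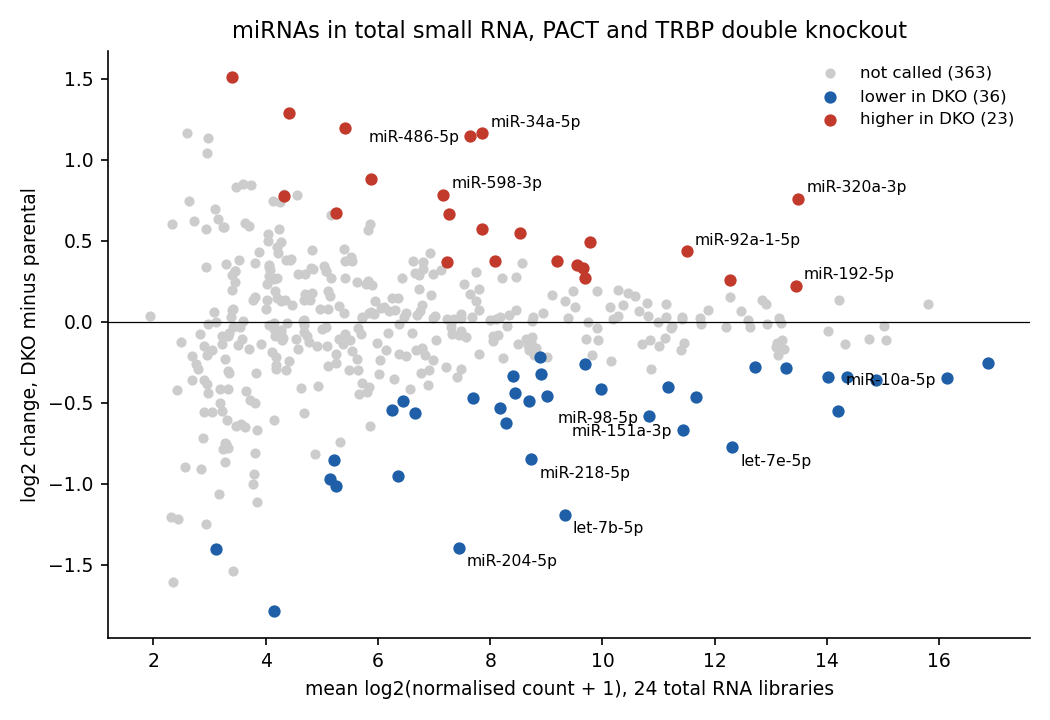
Each point is 1 of the 422 miRNAs tested, with its mean log2(normalised count + 1) over 24 total RNA libraries on the x axis and its log2 change, DKO minus parental, on the y axis. The 36 blue points fell and the 23 red points rose, while the grey points, 363 in number, were not called and spread more widely at low levels.

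Among guide strands of the let-7 family, which restrain growth and stem cell programmes in many tissues, 8 of 9 fell and 1, let-7c-5p, did not pass the test. The median change of the 9 was -0.46, beside -0.02 over all miRNAs tested. let-7b-5p had the largest change of the family. Its normalised count was 730 to 973 (median 913) in parental and 307 to 469 (median 411) in DKO libraries. Every DKO library was below every parental one, and the change was -1.19 ± 0.10 (SE, adjusted p = 6.2e-10 in limma, lower in all 3 transfections). let-7e-5p stood at 5623 to 7314 (median 6093) in parental and 2997 to 4317 (median 3659) in DKO libraries. These ranges were also apart, with a change of -0.77 ± 0.07 (adjusted p = 1.1e-09 in limma).

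Other members of the family fell by less. let-7g-5p was at 3231 to 4039 (median 3333) in parental and 2408 to 2754 (median 2462) in DKO libraries, and let-7f-5p at 18956 to 24263 (median 21058) and 15521 to 18122 (median 16804). In both the libraries of the lines did not overlap, and the changes were -0.46 ± 0.06 and -0.34 ± 0.07. miR-98-5p, which shares the let-7 seed, went from 1586 to 2489 (median 1796) in parental to 958 to 1486 (median 1291) in DKO libraries, again without overlap, a change of -0.58 ± 0.12. let-7d-5p (-0.49 ± 0.11), let-7i-5p (-0.40 ± 0.09) and let-7a-5p (-0.34 ± 0.09) passed the test with libraries that overlapped. let-7c-5p was at 7115 to 10067 (median 8307) in parental and 6552 to 8745 (median 7627) in DKO libraries, a difference of -0.16 ± 0.08 with an adjusted p of 0.25 in limma.

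let-7f-5p and let-7a-5p were the most abundant members in the parental line, with means of 21306 ± 1899 and 17586 ± 1278 (SD, n = 6), and had the smallest changes among those called. let-7b-5p, at 882 ± 91.4, and let-7d-5p, at 439 ± 55.7, were the least abundant. The sum of the 10 tested miRNAs with the let-7 seed, miR-4458 included, was 56683 to 71730 per parental library and 42189 to 52487 per DKO library. That sum made up 6.93 to 8.76% of all normalised counts in the parental and 6.02 to 6.83% in the DKO libraries. Of the other arms of let-7 hairpins, 5 of 11 were abundant enough to test. Their differences were -1.40 to -0.61, with a median of -0.75, and 1 of them, let-7a-3p, was called lower. The counts of let-7a-3p rest on 2 to 14 reads per library.

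**Figure D2:**
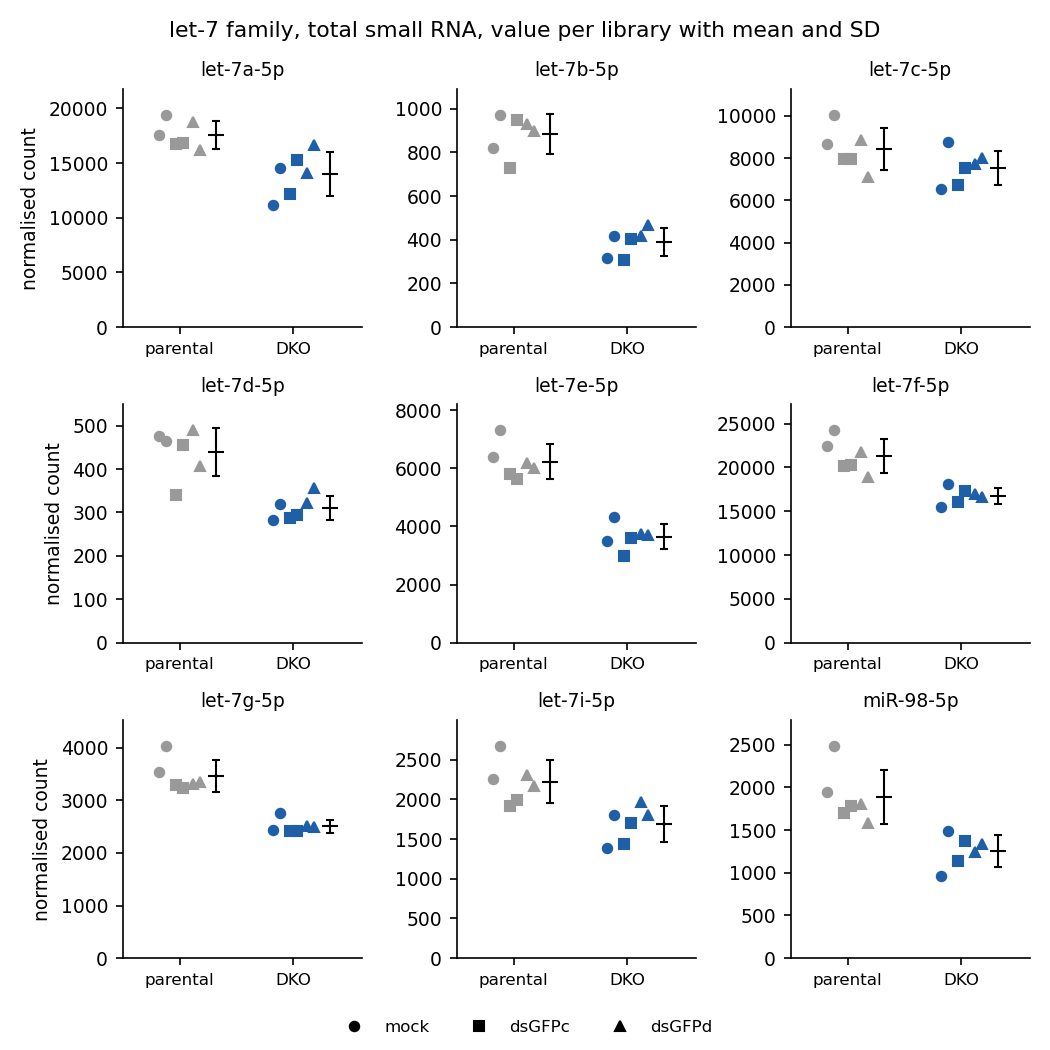
Normalised count per library (y axis, from 0) of the 9 let-7 family guide strands in the parental line (grey) and DKO (blue), with 1 point per library, shapes for transfections and bars for mean ± SD (n = 6). The points of the lines are apart in let-7b-5p, let-7e-5p, let-7f-5p, let-7g-5p and miR-98-5p, and mixed in let-7c-5p.

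Ratios between neighbouring hairpins do not depend on how libraries were scaled, since both values come from the same library. Where 2 hairpins sit within 10 kb on 1 strand they are often cut from 1 primary transcript. Of 45 such ratios, each between the more abundant arms, 4 (8.89%) passed the test in limma, and 10 had an unadjusted p below 0.05. Each ratio sets the hairpin that comes first on its strand over the next one. The split of 3 upward (6.67%) and 1 downward (2.22%) depends on that order. A cluster of 3 hairpins gave 2 of the 4, inside the span of SPACA6 and SPACA6-AS1: MIR99B at chr19:51692612-51692681, MIRLET7E at chr19:51692786-51692864 and MIR125A at chr19:51693254-51693339 (GRCh38.p14, plus strand). Their hairpins follow in that order, with the more abundant mature arm in capitals.
MIR99B: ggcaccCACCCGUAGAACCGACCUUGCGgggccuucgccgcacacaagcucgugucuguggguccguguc
MIRLET7E: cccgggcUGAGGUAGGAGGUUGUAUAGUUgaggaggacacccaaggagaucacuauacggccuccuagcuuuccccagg
MIR125A: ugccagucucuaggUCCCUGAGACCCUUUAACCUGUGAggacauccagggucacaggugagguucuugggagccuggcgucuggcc
Only the middle hairpin of the 3 gave a miRNA that passed the test on its level.

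In that cluster the log2 ratio of miR-99b-5p to let-7e-5p was -1.66 to -1.33 in the parental and -1.09 to -0.78 in the DKO libraries, a rise of 0.62 ± 0.08 (adjusted p = 9.3e-06 in limma). The ratio of let-7e-5p to miR-125a-5p went from a mean of 1.39 to 0.71, a change of -0.67 ± 0.12 (adjusted p = 0.00023 in limma). let-7e-5p is the lower term of the first ratio and the upper term of the second. Its fall enters both, so they are not separate results. In the TRBP knockout the first ratio averaged -1.02 (-1.16 to -0.82), near the DKO mean of -0.93, and the second averaged 1.11. In the PACT knockout these means were -1.67 and 1.55. The levels of miR-99b-5p (-0.15, adjusted p = 0.24) and miR-125a-5p (-0.10, adjusted p = 0.50) did not pass limma's test. Among the cluster partners of let-7, 0 of 4 tested were called by limma and their median change was -0.05.

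A second let-7 pair lies on chromosome 22, where MIRLET7A3 and MIRLET7B start 937 bases apart. The log2 ratio of let-7a-5p to let-7b-5p was 4.15 to 4.52 in the parental libraries and 5.07 to 5.30 in DKO libraries, a rise of 0.85 ± 0.10 (adjusted p = 1.8e-06 in limma). It averaged 4.55 in the PACT knockout and 4.71 in the TRBP knockout. let-7a-5p is also made at 2 other loci, on chromosomes 9 and 11, so this ratio does not belong to 1 transcript alone. On chromosome X, the ratio of let-7f-5p to miR-98-5p changed by 0.24 ± 0.08 without passing the threshold (adjusted p = 0.069 in limma). let-7f-5p is also made on chromosome 9, so this ratio too does not belong to 1 transcript alone.

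The 4th ratio that passed lies outside let-7. The log2 ratio of miR-424-3p to miR-503-5p, a member of the miR-15/16 family, was -0.86 to 0.19 in the parental and -0.53 to 0.49 in the DKO libraries, which overlapped, a rise of 0.47 ± 0.12 (adjusted p = 0.014 in limma). This ratio averaged -0.37 in the PACT knockout and -0.57 in the TRBP knockout. On the other side of miR-503-5p, its ratio to miR-542-3p changed by -0.41 ± 0.16 without passing the threshold (adjusted p = 0.11 in limma). With the lesser arm, miR-542-5p, in its place the change was -0.83 ± 0.21 and passed. The ratio of miR-181c-5p to miR-181d-5p changed by -0.39 ± 0.13 (adjusted p = 0.053 in limma). Without the parental dsGFPc replicate 1 library 3 ratios passed, and without the parental mock replicate 2 library 7 did. miR-503-5p itself fell, from 380 to 498 (median 403) in parental to 270 to 355 (median 302) in DKO libraries.

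**Figure D3:**
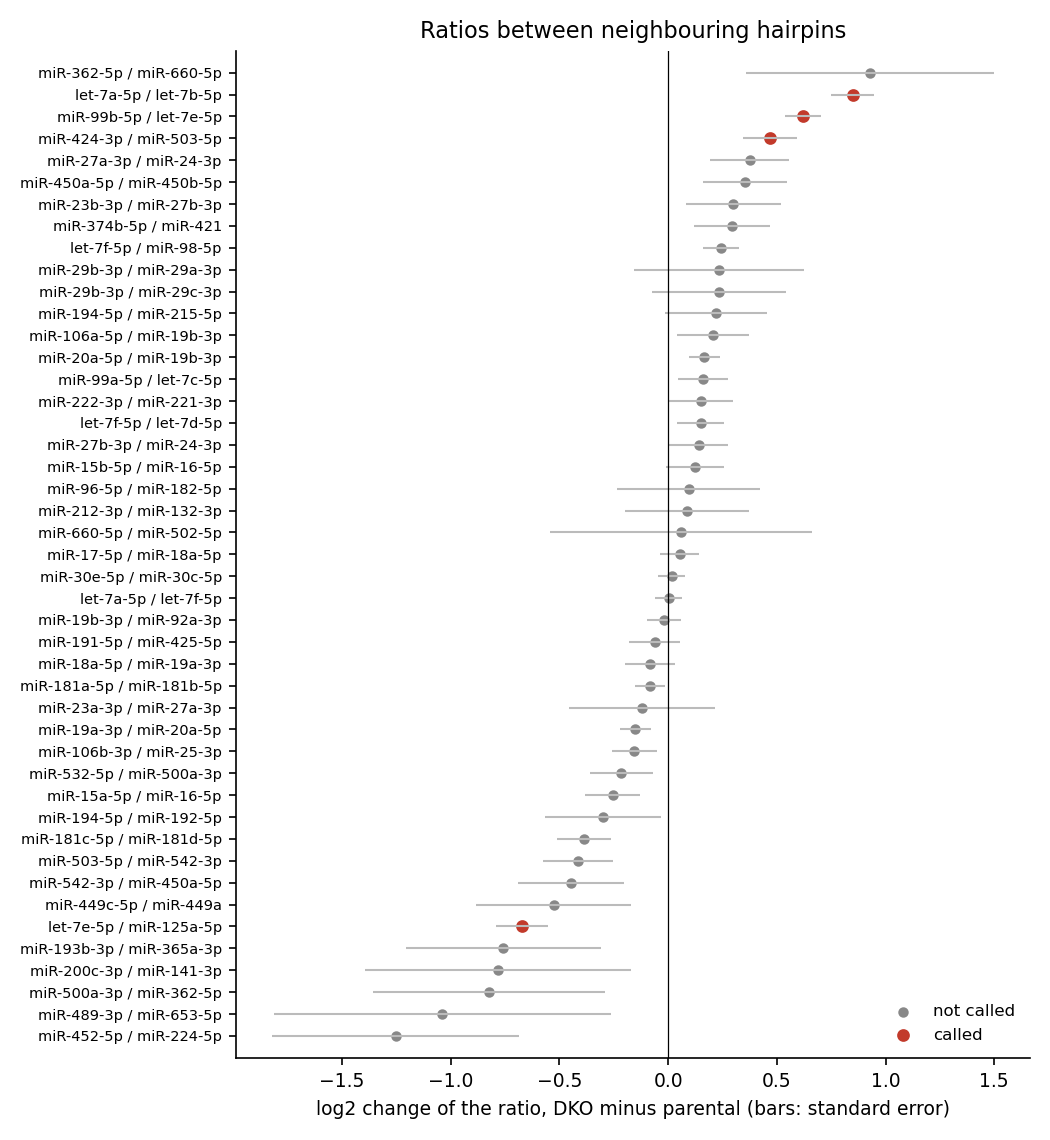
Change of the log2 ratio between the more abundant arms of 45 pairs of neighbouring hairpins, DKO minus parental (x axis; bars are standard errors), with pairs sorted on the y axis. The 4 coloured points passed the test, and 3 of them involve let-7b-5p or let-7e-5p.

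miR-204-5p, known from retinal pigment epithelium and made within the span of TRPM3 (chr9:70809975-70810084, minus strand), had the largest fall above the median level. It was counted at 187 to 295 (median 215) in parental and 66.7 to 110 (median 89.7) in DKO libraries. The ranges were far apart, and the change was -1.39 ± 0.14 (adjusted p = 7.1e-09 in limma). miR-218-5p, which is made within the spans of SLIT2 and SLIT3, was at 440 to 617 (median 511) in parental and 245 to 317 (median 280) in DKO libraries. It changed by -0.85 ± 0.08 without overlap (adjusted p = 7.0e-09 in limma). miR-324-5p went from 77.4 to 139 (median 92.8) down to 24.1 to 71.3 (median 52.5), a change of -0.95 ± 0.18. 

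Both arms of miR-151a fell. miR-151a-3p was at 2960 to 3268 (median 3161) in parental and 1790 to 2243 (median 1964) in DKO libraries, and miR-151a-5p at 480 to 618 (median 550) and 343 to 432 (median 406). Neither arm overlapped between the lines, and the changes were -0.67 ± 0.06 and -0.46 ± 0.08. Both arms of miR-324 fell too, the 3p arm by 0.55 ± 0.16, a call lost in 2 of the 12 fits that left out 1 library. miR-181c-5p changed by -0.63 ± 0.14, from 277 to 618 in the parental to 189 to 439 in the DKO libraries. Both lines were lowest in mock and higher with dsRNA, and within each transfection both DKO libraries were below both parental ones. The mean of miR-181c-5p was also 296 in the PACT knockout and 271 in the TRBP knockout, beside 293 in DKO.

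The most abundant miRNAs that fell had small changes. miR-10b-5p, the miRNA with the highest mean here, and miR-10a-5p lie in the HOXD and HOXB clusters. miR-10a-5p was at 70004 to 81234 (median 77317) in parental and 53509 to 65878 (median 59662) in DKO libraries, a change of -0.35 ± 0.05 without overlap. miR-10b-5p changed by -0.25 ± 0.06 with overlap, and by exactly 0 after quantile normalization, which holds the top rank fixed. miR-30d-5p (-0.36 ± 0.06) and miR-30b-5p (-0.42 ± 0.09) fell, while the other 9 of 11 miR-30 strands tested were not called. miR-191-5p changed by -0.28 ± 0.06, from 6514 to 7733 in parental to 5355 to 6335 in DKO libraries.

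miR-1291 overlaps a small nucleolar RNA (snoRNA), so its reads may not all be miRNA. It was at 19450 to 34626 (median 20556) in parental and 12944 to 18194 (median 15534) in DKO libraries, a change of -0.55 ± 0.12. After quantile normalization its adjusted p in limma was 0.094. Of the other 4 tested entries overlapping other small RNAs 0 were called by limma. miR-10399-3p was called lower at -0.97 ± 0.31, but it had 3 reads or fewer in each mock library and 72.7 or more normalised counts in each library with dsRNA, in both lines. It lost the call in 5 of the 12 fits that left out 1 library.

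**Figure D4:**
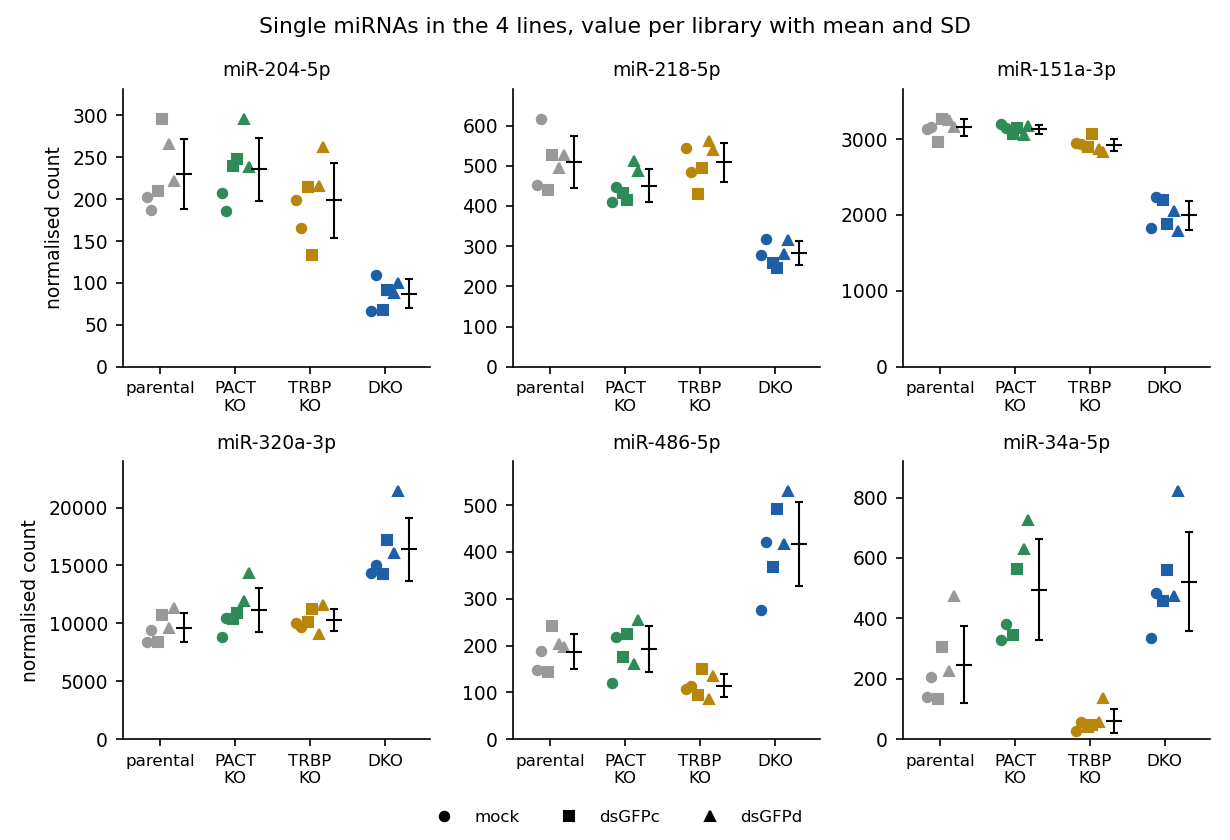
Normalised count per library (y axis, from 0) of 6 miRNAs in the parental line, the PACT knockout, the TRBP knockout and DKO, with shapes for transfections and bars for mean ± SD (n = 6). miR-204-5p, miR-218-5p and miR-151a-3p have their lowest means and miR-320a-3p and miR-486-5p their highest in DKO, while miR-34a-5p averages 495 without PACT and 61.2 without TRBP.

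The 3 miR-320 strands tested rose. The miR-320a precursor is known to form without Drosha, as the start of its own capped transcript, and to go to Dicer from there. miR-320a-3p was at 8351 to 11336 (median 9494) in parental and 14246 to 21412 (median 15581) in DKO libraries. All DKO libraries were above all parental ones, and the change was 0.76 ± 0.08 (adjusted p = 4.3e-08 in limma). miR-320b was at 120 to 150 (median 138) and 171 to 297 (median 214), also apart, with a change of 0.67 ± 0.12. miR-320c, counted at 7 to 29 reads per library, changed by 0.78 ± 0.25 and lost the call in 6 of the 12 fits without 1 library. miR-484, the 4th tested member of the Drosha-independent list, was at 461 to 573 in parental and 469 to 665 in DKO libraries, a difference of 0.06 (adjusted p = 0.83 in limma). So 3 of 4 rose, all of them miR-320 strands, beside 5.45% rising over all miRNAs tested, and the median of the list was 0.71. miR-320b and miR-320c share a seed and most of their bases. How reads of such strands were assigned is not given in the sources used here, so the 3 may not be separate results.

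Hairpins made by splicing, the mirtrons, also bypass Drosha. Of 5 tested, 0 were called by limma, with differences of -1.61 to -0.09 and a median of -0.42. None of these differences was detectable at this depth by the test used. miR-486-5p, which is matured with the help of Ago2 cutting in red cells, rose from 143 to 242 (median 193) in parental to 275 to 529 (median 419) in DKO libraries. The lines did not overlap, and the change was 1.15 ± 0.17 (adjusted p = 7.0e-06 in limma). miR-451a, the best known miRNA that skips Dicer, had a read in 1 of the 12 libraries.

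miR-34a-5p, a p53 target that slows the cell cycle, was at 134 to 473 (median 215) in parental and 334 to 821 (median 478) in DKO libraries. The ranges overlapped through 1 parental library, dsGFPd replicate 2, and within each transfection every DKO library was above every parental one. The change was 1.16 ± 0.24 (adjusted p = 0.00097 in limma). miR-598-3p rose from 118 to 171 (median 133) to 194 to 266 (median 238), and miR-129-5p, a neural miRNA, from 32.7 to 55.2 (median 45.9) to 77.7 to 88.6 (median 81.3). Neither overlapped, and the changes were 0.78 ± 0.14 and 0.88 ± 0.18.

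Further rises were smaller. miR-152-3p was at 271 to 392 (median 340) in parental and 442 to 578 (median 488) in DKO libraries, a change of 0.55 ± 0.10 without overlap, while miR-148a-3p and miR-148b-3p of the same seed were not called. miR-92a-1-5p, the lesser arm of a miR-17~92 hairpin, went from 2319 to 2845 (median 2688) to 3251 to 3798 (median 3575), also apart, a change of 0.44 ± 0.08. Of the guide strands of miR-17~92 and its paralogs 1 of 10 rose, miR-20a-5p at 0.26 ± 0.06. miR-31-5p changed by 0.57 ± 0.13, from 140 to 224 (median 163) to 197 to 362 (median 256). It also averaged 268 in the PACT knockout and 236 in the TRBP knockout, beside 261 in DKO. miR-375-3p (0.27 ± 0.08) and miR-130b-5p (0.33 ± 0.07) had small rises without overlap between the lines.

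miR-221-5p is the lesser arm of its hairpin. It was at 1081 to 1654 (median 1392) in parental and 1317 to 2545 (median 2082) in DKO libraries, a change of 0.49 ± 0.09 with overlap. The main arm, miR-221-3p, was at 15615 to 17853 and 12824 to 16678, a difference of -0.20 (adjusted p = 0.061 in limma). The ratio of the arms was tested in 111 hairpins with both arms measured, and 2 (1.80%) passed, both toward 5p; 13 had an unadjusted p below 0.05. With no low-count filter, or with only 1 replicate number kept, 0 passed in limma. For miR-221 the log2 ratio of 5p to 3p rose by 0.70 ± 0.12 (adjusted p = 0.0011 in limma), from a mean of -3.60 ± 0.25 to -2.90 ± 0.43 (SD, n = 6). For miR-126, an endothelial miRNA, it rose by 0.76 ± 0.16 (adjusted p = 0.0064 in limma), from -0.20 to 0.18 in the parental to 0.45 to 1.33 in the DKO libraries, which were all above. Its 3p arm, a marker of another cell type, was at 100 to 139 and 68.4 to 111. The mean miR-126 ratio was also 0.76 in the TRBP knockout (0.47 to 1.29), beside 0.79 in DKO, and -0.24 in the PACT knockout. For miR-221 the mean ratio was -3.20 in the TRBP knockout and -3.74 in the PACT knockout.

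In the other lists few members were called, to be read beside 14.0% called, 5.45% rising and 8.53% falling over all miRNAs tested, and a single call in lists this short is not read as a result about the list. In the miR-181 family 2 rose and 1 fell of 8, with miR-181a-2-3p called in 5 of the 12 fits that left out 1 library, in the miR-10 family 2 fell of 4, and in the miR-15/16 family 1 fell of 6. In the miR-130 family 1 of 4 fell (miR-301a-3p, called in 5 of those 12 fits), in the miR-148 family 1 of 3 rose, and 1 of 4 rose in each of the miR-34 and miR-221 lists. Among 6 immune-responsive miRNAs 2 rose, miR-146a-5p and miR-132-3p, which were called in 5 and 8 of those 12 fits. No member was called by limma of 3 in the miR-29 family, 5 in the miR-23/27/24 clusters, 8 in the CLCN5 cluster, or of the 2 miRNAs by which the submitters tested their pulldown. Of 4 markers of other cell types abundant enough to test, 1 rose (miR-375-3p). 

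Of the 59 miRNAs called, 24 had libraries that did not overlap between the lines, 9 that rose and 15 that fell. Over all 422 tested, 26 (6.16%) did not overlap, 10 with DKO above (2.37%) and 16 with DKO below (3.79%). The call held in each of 12 fits that left out 1 library for 39 of the 59, made up of 15 that rose and 24 that fell. The others lost it at least once. Among miRNAs with changes near 1 or above, these were miR-4661-5p, let-7a-3p, miR-4428 and miR-3159, which had few reads, and miR-10399-3p, which had few in mock libraries. The call was held in 3 of the 12 fits by miR-345-5p, in 5 by miR-421, miR-301a-3p, miR-181a-2-3p, miR-126-5p and miR-146a-5p, and in 6 by miR-760 and miR-320c, with a highest adjusted p of 0.1045 to 0.1345 in limma. It was held in 8 to 10 fits by miR-342-3p, miR-324-3p, miR-3609, miR-132-3p, miR-192-5p, miR-196b-5p and miR-1287-5p, with a highest adjusted p of 0.057 to 0.085.

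Features of the called miRNAs are given here beside those of all miRNAs tested, without a test. The median parental level was 515 normalised counts in those that fell, 247 in those that rose and 55.4 over all tested. Of those with an arm in their name, 24 of 32 that fell were 5p strands, as were 12 of 19 that rose and 187 of 353 tested. Without the let-7 seed, 16 of 24 that fell were 5p strands. The number of bases between the arms of the hairpin had a median of 18.5 in 24 that fell with both arms annotated, 15 in 13 that rose and 16 in 296 tested. All let-7 hairpins that entered this count lie at 23 to 36 bases, and without the let-7 seed the median of those that fell was 17. The first base was U in 15 of 28 that fell, 8 of 19 that rose and 163 of 382 tested with a sequence. It was U in 8 of 20 that fell without the let-7 seed.

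Within single transfections, with 2 libraries against 2, fewer miRNAs passed. In mock libraries 15 (3.55%) were called, 4 higher (0.948%) and 11 lower (2.61%). With dsGFPc 14 (3.32%) were called, 5 higher (1.18%) and 9 lower (2.13%). With dsGFPd 9 (2.13%) were called, 2 higher (0.474%) and 7 lower (1.66%). Scaling to the same sum gave 9 higher and 10 lower in mock, 14 and 7 with dsGFPc, and 3 and 5 with dsGFPd. let-7b-5p, let-7e-5p, miR-204-5p, miR-218-5p, miR-151a-3p and miR-320a-3p passed in each of the 3. For let-7b-5p the changes were -1.29, -1.24 and -1.04, and for miR-320a-3p 0.72, 0.72 and 0.84. A difference between the lines in the response to dsRNA was tested directly, and 0 of 422 passed in limma; 15 had an unadjusted p below 0.05, and 1 passed after quantile normalization.

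The single knockouts share the parental libraries with this comparison, so their values stand beside it without a count of shared calls. Against the parental line 6 of 422 (1.42%) were called in the PACT knockout, 2 higher (0.474%) and 4 lower (0.948%). In the TRBP knockout 86 (20.4%) were called, 40 higher (9.48%) and 46 lower (10.9%). In the let-7 family 0 of 9 were called without PACT by limma, and 4 rose and 2 fell without TRBP. let-7b-5p averaged 882 ± 91.4 in the parental line, 743 ± 122 in the PACT knockout, 681 ± 68.7 in the TRBP knockout and 389 ± 63.5 in DKO (SD, n = 6). For let-7e-5p these were 6217 ± 602, 6722 ± 690, 4400 ± 425 and 3644 ± 426. miR-204-5p averaged 230 ± 41.6, 236 ± 37.7, 198 ± 44.3 and 87.3 ± 17.2.

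DKO was also tested against each single knockout. Against the PACT knockout 41 of 422 (9.72%) were called, 16 higher (3.79%) and 25 lower (5.92%); scaling to the same sum gave 25 and 22. Against the TRBP knockout 151 (35.8%) were called, 75 higher (17.8%) and 76 lower (18.0%), and 93 and 52 with the same sum. miR-204-5p was lower in DKO by 1.43 and 1.17 on the log2 scale (adjusted p = 6.3e-09 and 8.2e-08 in limma). miR-34a-5p, in contrast, did not pass between DKO and the PACT knockout (0.09, adjusted p = 0.88 in limma), and was 3.21 higher than in the TRBP knockout. It averaged 495 ± 167 without PACT and 61.2 ± 39.2 without TRBP. miR-221-5p was at 163 to 264 in the TRBP knockout, far below the other 3 lines, and miR-221-3p at 1734 to 2316.

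Whether DKO differed from the sum of the single changes was tested as an interaction on the log2 scale, and 81 of 422 (19.2%) passed, 42 higher (9.95%) and 39 lower (9.24%) than that sum. In the let-7 family 8 of 9 were lower than the sum, let-7a-5p being the exception (adjusted p = 0.063 in limma). The sum holds the change in the TRBP knockout, where 4 of these 9 rose and 2 fell. let-7i-5p averaged 2218 in the parental line, 3223 in the TRBP knockout and 1684 in DKO. miR-204-5p was lower by 1.21 ± 0.20 (adjusted p = 3.6e-05 in limma) and miR-598-3p higher by 1.31 (adjusted p = 1.3e-05). For miR-221-5p and miR-34a-5p the values of 3.63 and 2.13 stand beside low levels in the TRBP knockout, given above.

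In Ago pulldown, which isolates the strands bound by Ago proteins, 12 other libraries of the same lines were compared. There 21 of 897 miRNAs (2.34%) were called, 6 higher (0.669%) and 15 lower (1.67%); scaling to the same sum gave 12 and 8. The 12 miRNAs called the same way in both fractions are 12 of the 59 called in total RNA and 12 of the 21 in pulldown. Of those that rose in total RNA 20 of 23 had the same sign in pulldown, and of those that fell 32 of 34 tested there, beside 68.1% of 408 tested in both. miR-204-5p changed by -2.32 ± 0.19, let-7b-5p by -1.55 ± 0.19 and let-7e-5p by -1.16 ± 0.14 in pulldown (adjusted p = 1.3e-10, 1.3e-06 and 1.2e-06 in limma).

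Some miRNAs had unlike values in the fractions, though the difference between fractions was not tested. miR-320a-3p had a pulldown difference of 0.01 ± 0.26 (adjusted p = 0.99 in limma) beside its rise in total RNA, while miR-320b rose by 0.77 ± 0.20. let-7c-5p, which did not pass in total RNA, fell by 0.81 ± 0.19 in pulldown, and let-7i-5p, which fell in total RNA, had a pulldown difference of 0.02 ± 0.16. miR-218-5p had -0.32 ± 0.18 (adjusted p = 0.46 in limma). Leaving out 1 pulldown library moved the count of 21 to between 5 and 25, with 5 left without the parental dsGFPc replicate 2 or dsGFPd replicate 2 library.

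**Figure D5:**
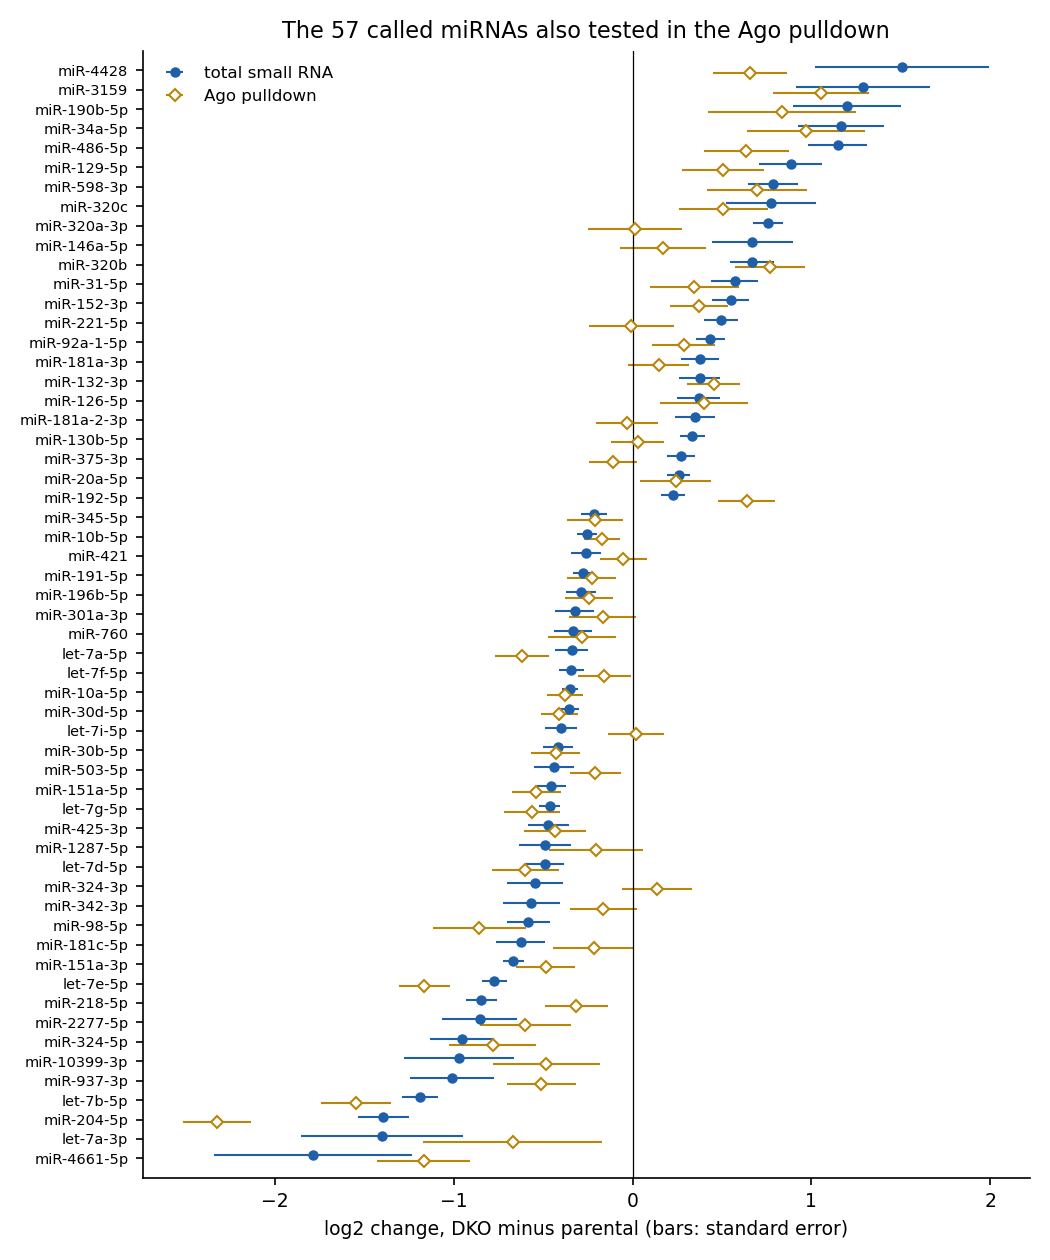
Log2 change, DKO minus parental (x axis; bars are standard errors), of the 57 called miRNAs also tested in Ago pulldown, with total small RNA as filled and pulldown as open points. Pulldown values lie on the same side of 0 for 52 of the 57, and reach beyond those of total RNA for miR-204-5p, let-7b-5p and let-7e-5p.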

How the data were processed

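For experiment 1 a table of 48 libraries by mature miRNA names was used; the authors made its signal by normalising read counts, and the values are as deposited. STAR and build GRCh38 were used per the submitters' processing notes, with versions not given; the counter and the normalization are not given in the sources used here. Values in a column are whole multiples of 1 step (100% within 0.01 of a read), from which the whole reads behind every value were computed. Where a name had rows for several loci, the one with most reads was kept (2652 names of 2883 rows; 231 set aside). A miRNA was tested with at least 10 reads in at least 6 of 24 libraries.

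Tests used limma 3.58.1 in R 4.3.3 on log2(value + 1), with additive terms for line and transfection over the 24 total RNA libraries of 4 lines (eBayes with trend, and robust except for ratios), and Benjamini-Hochberg adjustment at 0.05. Fold changes on this scale understate those of low miRNAs. The effect of dsRNA and single transfections used 1 mean per group; pulldown had its own fit of 24 libraries. edgeR 4.0.16 and DESeq2 1.42.0 on recovered reads were alternatives, and the code was tested on simulated data. The 6 pairs of replicate libraries held 0 identical ones, with a chi-square per degree of freedom of 7.27 to 18.5. Any miRNA called may be named; library values are given for up to 12 that rose and 12 that fell, by size, above the median level and with 1 sign in every transfection, and for list members. The members, lists and tests were chosen with earlier results of these data known. Sequences and hairpin positions are from RefSeq; the more abundant arm of a hairpin was taken over its arms there and their partner arms by name in the table. The tables of the other experiments were not used here.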

Additional observations from a re-analysis of the deposited data

Results flagged for a closer look

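In 6 of 74 groups of 6 libraries checked, 1 library lay far from the others. Chance alone would place about 1 in 20 groups there if the 6 were alike, but each group mixes 3 transfections. Among called miRNAs outside this check, 1 library also lay far apart for miR-1287-5p in DKO. The same held for miR-503-5p and miR-425-3p in the parental line. let-7g-5p was at 4039 in the parental mock replicate 2 (others 3231 to 3526) and at 2754 in the DKO mock replicate 2 (others 2408 to 2518). miR-1291 was at 34630 in the parental dsGFPc replicate 2 (others 19450 to 24630). miR-3609 was at 347.4 in the DKO dsGFPd replicate 1, miR-181d-5p at 1616 in the DKO dsGFPd replicate 2, and let-7a-3p at 9.03 in the DKO mock replicate 2.

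Over all miRNAs tested, 81 of 422 (19.2%) differed in DKO from the sum of the single knockout changes by the interaction test in limma. The 29 checked here were picked among miRNAs called against parental. That difference is part of the interaction, so a higher share among them is partly built in. Of these 29, 22 differed from that sum. The sum holds the TRBP knockout changes, and let-7i-5p and miR-98-5p averaged higher in that line than in the parental line. Below that sum on the log2 scale were miR-204-5p (-1.21), miR-98-5p (-1.02), let-7i-5p (-1.02), miR-324-5p (-0.85), let-7d-5p (-0.69), miR-218-5p (-0.67), let-7f-5p (-0.59), let-7b-5p (-0.56), let-7g-5p (-0.56), miR-151a-3p (-0.54), miR-31-5p (-0.51) and let-7e-5p (-0.39). Above it were miR-221-5p (3.63), miR-34a-5p (2.13), miR-486-5p (1.83), miR-598-3p (1.31), miR-132-3p (0.78), miR-181c-5p (0.71), miR-320b (0.66), miR-152-3p (0.58), miR-320a-3p (0.46) and miR-92a-1-5p (0.31). miR-31-5p and miR-181c-5p lie on the side of the sum opposite to their change from parental.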

How the results depend on the processing

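The count of 59 was 77 with libraries scaled to the same sum, 54 after quantile normalization, 61 with edgeR and 61 with DESeq2, and 46 to 64 without 1 library. It was 39 with no low-count filter, where more miRNAs were tested, 10 with mock libraries only, 10 for changes of at least 1, and 24 without replicate 2. The call held for 35 of the 59 under every alternative in which the miRNA was tested, at most 10 per miRNA. With no low-count filter the counts were 0 for arm ratios, 2 for neighbour ratios, 27 for DKO against the PACT knockout, 49 for the interaction and 11 for pulldown. Neighbour ratios gave 6 when only arms in the RefSeq table stood for a hairpin, an alternative chosen after seeing the data. Pulldown gave 33 with DESeq2, 5 with only the 2 lines compared and 11 for changes of at least 1. The response to dsRNA gave 1 after quantile normalization and 1 with a pseudocount of 0.1. miR-125a-5p, not called, changed sign with the same sum (0.0193), quantile normalization (0.0203) and mock libraries only (0.0557), as did miR-484 without replicate 1 (-0.0011), beside 0.115 without replicate 2. The cause of these shifts was not tested.

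Deviations of same-numbered libraries correlated at -0.11 to 0.16 over 15 pairs of the parental and DKO total RNA groups. Of these correlations 3 were above 0.1, and pulldown libraries were not checked. The main fit did not treat replicate numbers as pairs. With a replicate block the main count was 63, dsGFPd gave 17 and pulldown 33, beside 59, 9 and 21 without it. Without 1 library or replicate number, counts ranged from 3 to 15 in mock, 6 to 15 with dsGFPc, 0 to 1 for the response to dsRNA, 0 to 3 for arm ratios, 3 to 7 for neighbour ratios, 19 to 43 against the PACT knockout, 86 to 144 against the TRBP knockout, 42 to 81 for the interaction and 3 to 25 for pulldown. The mock count was 3 without DKO replicate 1, and the dsGFPc count 6 without DKO replicate 2. Where a transfection kept 1 library of a line, that library is assumed to vary like the other groups. With 406531 to 1020613 reads per library, miRNAs under about 10 reads could not be tested.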
